A study of Homo sapiens with 72 samples.

Results

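PEO1 cells that had been treated with rucaparib for 24 h and then detached and sorted were compared with treated cells of the same time point that were lysed on the dish. The samples were picked out by their labels, as the gates Hi, Lo and Un of the Ruc treatment at 24 h, with earlier results of these data known. They are 27 of the 72 libraries of the series, and adding the 3 libraries of each gate and replicate number gave 6 sorted and 3 unsorted samples, which are 9 of 24. PEO1 is an established line derived from high-grade serous carcinoma of the ovary, and rucaparib is a PARP inhibitor that is itself fluorescent, so that cells can be sorted by the drug they hold. The series covers 8 groups of 3 replicates, namely Vehicle (DMSO, unsorted) and the treated groups RucTotal, RucLow and RucHigh, each at 2 h and at 24 h, and the question it was designed for concerns cells with low and high drug levels.

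All treated cells had received 8.5 µM rucaparib. RucTotal cells (gate Un) were scraped straight into lysis buffer. RucLow and RucHigh are the bottom and the top 20% of treated cells by drug fluorescence, and before lysis they had been taken off the dish with TrypLE, suspended in cold buffer, strained, held on ice and sorted into serum. Cells between these gates are in the unsorted and not in the sorted samples. Detachment, suspension, time on ice, the sorter, the gates and the way of lysis were therefore all different between the sorted and unsorted samples and cannot be told apart. No vehicle cells were sorted in these libraries, so the contrast was measured only in cells with drug. PEO1 stands for 1 cell line, and p-values measure the spread between replicate numbers of that line.

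Adherent cells are anchored by integrins, and loss of that anchorage, enzymatic digestion and mechanical strain are known to act on MAP kinase signalling, on the serum response factor and on the YAP and TAZ coactivators. Immediate-early genes such as FOS and EGR1 are transcribed within minutes of such a stimulus without new protein synthesis, and their mRNAs are short-lived. Tissue dissociation and cell sorting are widely known to leave a mark of this kind on expression profiles.

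Sorted cells differed from unsorted cells mainly in the immediate-early genes EGR1, FOS and FOSB and the YAP target CCN2, all of which were more than 10-fold higher after sorting, and in transcripts of the mitochondrial genome, of which 12 of 13 rose. Collagenase and plasminogen activator inhibitor genes that were high in treated cells on the dish, such as MMP1 and SERPINB2, fell. Lower calls were also frequent among nuclear genes of the respiratory chain and genes of DNA replication. The medians of these 2 lists were near 0 in replicate 3, at -0.09 and -0.03. Most classical heat shock genes did not pass the test in either direction.

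The libraries of the 3 groups held 27747511 to 38899905 estimated reads each, made from poly(A) RNA with strand-specific kits. Of 19834 genes tested, 810 (4.08%) were higher and 982 (4.95%) lower in sorted cells at a Benjamini-Hochberg adjusted p under 0.05 from edgeR. With the replicate number as a block, 2046 (10.3%) were higher and 2709 (13.7%) lower, and with the block and the mean transcript length of the sample 1612 (8.13%) and 2035 (10.3%). All 1792 calls were also called with the block. Without replicate 2, 5 genes were called higher, namely EGR1, FOS, CCN2, TRIM52 and SNORA33, and 0 lower, and with the block as well 273 and 25, while all 1790 of the calls tested there had the same direction. The counts were 356 and 24 without replicate 1 and 1111 and 1714 without replicate 3. The median log2 fold change of all genes was 0.01. Of the defining markers, 12 of 14 for serous cancer cells reached 1 CPM in a library (not SOX17 and FOLR1), 2 of 6 for leukocytes, 2 of 7 for fibroblasts and endothelium and 0 of 6 for blood and serum. PTPRC, CD3E, LYZ and CD79A, and PDGFRB, DCN, LUM, PECAM1 and VWF, were under 1 CPM in every library. The summed serous markers were at 18040 to 21380 CPM in RucTotal libraries, 14260 to 19680 in RucLow and 15760 to 22510 in RucHigh, and leukocyte markers at 18.6 to 30.8, 15.6 to 32.4 and 19.6 to 35.6 CPM.

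Promoters are shown for the member with the smallest p among the called genes of the immediate-early, YAP and heat shock lists, because these are the classes of stimulus-responsive promoter that the comparison bears on. Each runs from 250 bases before to 50 bases after the RefSeq start (GRCh38.p14), 5′ to 3′ on the gene's strand. EGR1 lies at chr5:138465229-138465528 on the plus strand, CCN2 at chr6:131951323-131951622 on the minus strand and AHSA1 at chr14:77457617-77457916 on the plus strand. Capitals mark CArG boxes, the binding motif of serum response factor, in EGR1, and the TEAD motif GGAATG in CCN2 and AHSA1.
EGR1: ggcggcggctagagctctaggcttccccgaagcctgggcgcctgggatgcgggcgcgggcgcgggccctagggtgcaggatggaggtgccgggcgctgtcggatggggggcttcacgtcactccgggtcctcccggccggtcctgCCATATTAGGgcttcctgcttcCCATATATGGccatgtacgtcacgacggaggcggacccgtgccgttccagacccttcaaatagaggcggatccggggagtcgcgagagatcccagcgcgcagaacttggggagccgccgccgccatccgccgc
CCN2: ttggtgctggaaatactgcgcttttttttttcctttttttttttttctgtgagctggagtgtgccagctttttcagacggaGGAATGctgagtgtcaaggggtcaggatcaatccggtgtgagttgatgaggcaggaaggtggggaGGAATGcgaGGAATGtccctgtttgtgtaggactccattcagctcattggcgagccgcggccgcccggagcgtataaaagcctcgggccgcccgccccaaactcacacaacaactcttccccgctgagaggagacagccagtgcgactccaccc
AHSA1: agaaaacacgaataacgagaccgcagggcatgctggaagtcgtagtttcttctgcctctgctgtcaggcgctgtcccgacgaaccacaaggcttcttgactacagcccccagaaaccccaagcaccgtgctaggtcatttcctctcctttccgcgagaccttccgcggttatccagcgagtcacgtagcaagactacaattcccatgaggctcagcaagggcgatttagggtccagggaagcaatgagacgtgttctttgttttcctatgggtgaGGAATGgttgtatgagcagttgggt
EGR1 held 2 CArG boxes, with first bases at -105 and -83 from the start, and 1.29% of 35116 promoters of this length held one. CCN2 held GGAATG 3 times, at -169, -104 and -95, and AHSA1 once, at 26, and 14% of all promoters held it. No match to the AP-1 site TGANTCA (7.71% of promoters), the cyclic AMP element TGACGTCA (1.85%) or the heat shock element GAANNTTC (6.77%) was found in these 3 windows on either strand, which says only that the letters are not there.

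Of 37 immediate-early genes tested, 11 were higher, 1 was lower and 25 did not pass, with a median log2 fold change of 0.57 (15 higher and 1 lower with the block). Counts of this and later lists stand beside 4.08% of all genes called higher and 4.95% lower. With the block these shares were 10.3% and 13.7%. In 16 of the 37, every sorted sample was above every unsorted sample, which held for 6.01% of all genes tested. The list was chosen with earlier results of these data known. EGR1, a zinc finger transcription factor and the gene with the smallest p among those shown here (chromosome 5, 138465490 to 138469315), stood at 17.9, 14.8 and 20.7 CPM in RucTotal replicates 1, 2 and 3, at 693, 503 and 399 CPM in RucLow and at 633, 451 and 395 CPM in RucHigh. CPM here are read counts scaled to a common library size with TMM factors, and values of a group are always given in the order of replicates 1, 2 and 3. The lowest sorted sample was far above the highest unsorted sample. The log2 fold change was 4.85 (standard error 0.27, adjusted p = 3.18e-09 from edgeR), or 28.8-fold. Untreated Vehicle cells, also scraped from the dish, held 14.8, 13.9 and 16.2 CPM.

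FOS, a component of the AP-1 factor (chromosome 14, 75278774 to 75282230), was at 7.68, 4.02 and 5.09 CPM in RucTotal, 99.0, 84.7 and 55.1 in RucLow and 99.4, 116 and 71.4 in RucHigh. FOSB, its paralogue, was at 3.48, 1.92 and 1.51 CPM in RucTotal, 38.1, 18.6 and 14.4 in RucLow and 32.1, 22.5 and 16 in RucHigh. Neither gene overlapped between sorted and unsorted samples, and the 2 gates covered like ranges. FOS rose 15.6-fold (3.96 on the log2 scale, adjusted p = 1.11e-05 from edgeR, standard error 0.37) and FOSB 10.3-fold (3.36, adjusted p = 0.0052, standard error 0.64). JUN, the main partner of FOS, had 176, 172 and 191 CPM in RucTotal, 632, 414 and 344 in RucLow and 465, 401 and 350 in RucHigh. It rose by 1.27 (standard error 0.18, adjusted p = 0.000531), from a level that was already above the 105 to 118 CPM of Vehicle.

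Among the other EGR factors, EGR2 rose by 3.38, although from 0.165 to 0.245 CPM in RucTotal to 1.09 to 3.22 CPM in sorted samples, and EGR3 by 1.33. ZFP36, which promotes decay of AU-rich mRNAs, rose from 23.9, 24.9 and 35.6 CPM to between 69 and 125 CPM (log2 fold change 1.74, adjusted p = 0.000908 from edgeR), and its relative ZFP36L1 rose by 0.88. IER2 rose by 1.02, MCL1, an inhibitor of apoptosis, by 0.72 and MYC by 0.62. All 6 sorted samples were above all 3 unsorted ones for each of these 7 genes. ID1, an inhibitor of helix-loop-helix factors, was the exception and fell by 0.75 (adjusted p = 0.0339 from edgeR), with RucTotal at 272, 273 and 171 CPM and sorted samples at 118 to 179, so that the groups overlapped at replicate 3.

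Other members of the same class did not pass. JUNB had 525, 535 and 402 CPM in RucTotal and 579 to 833 CPM in sorted samples (log2 fold change 0.53, adjusted p = 0.125, and 0.0387 with the block). The stress factor ATF3 was at 22.6, 26.2 and 30.9 CPM in RucTotal and 25.6 to 64 in sorted samples (0.35, adjusted p = 0.63), and the AP-1 subunit FOSL1 at 325, 332 and 355 and at 219 to 542 CPM (0.18, adjusted p = 0.739). For ATF3 and FOSL1 the groups overlapped and replicates differed in sign. The medians of the list by replicate were 0.90, 0.43 and 0.24 for replicates 1, 2 and 3.

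A list of genes switched on by MAP kinase signalling, among them its negative regulators, had 4 of 19 called higher and 0 lower (median 0.44, 7 higher with the block). The share of all genes called higher was 4.08%, and 10.3% with the block. DUSP1, a phosphatase that inactivates MAP kinases, was at 48, 48.9 and 45.1 CPM in RucTotal, 174, 128 and 97.8 in RucLow and 173, 116 and 90.0 in RucHigh. Unsorted samples lay close together, and every sorted sample was above all of them. The log2 fold change was 1.46 (standard error 0.37, adjusted p = 0.0203 from edgeR). SPRY2, an inhibitor of receptor tyrosine kinase signalling, rose by 0.70, SPRED3 by 1.42 and LIF, a cytokine and not a negative regulator, by 0.43 (adjusted p = 0.0196, 0.0104 and 0.0282 from edgeR). DUSP6, which acts on ERK, had 12.6, 15.3 and 15.4 CPM in RucTotal and 15.6 to 25.1 in sorted samples, and this did not pass (0.44, adjusted p = 0.305).

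**Figure D1:**
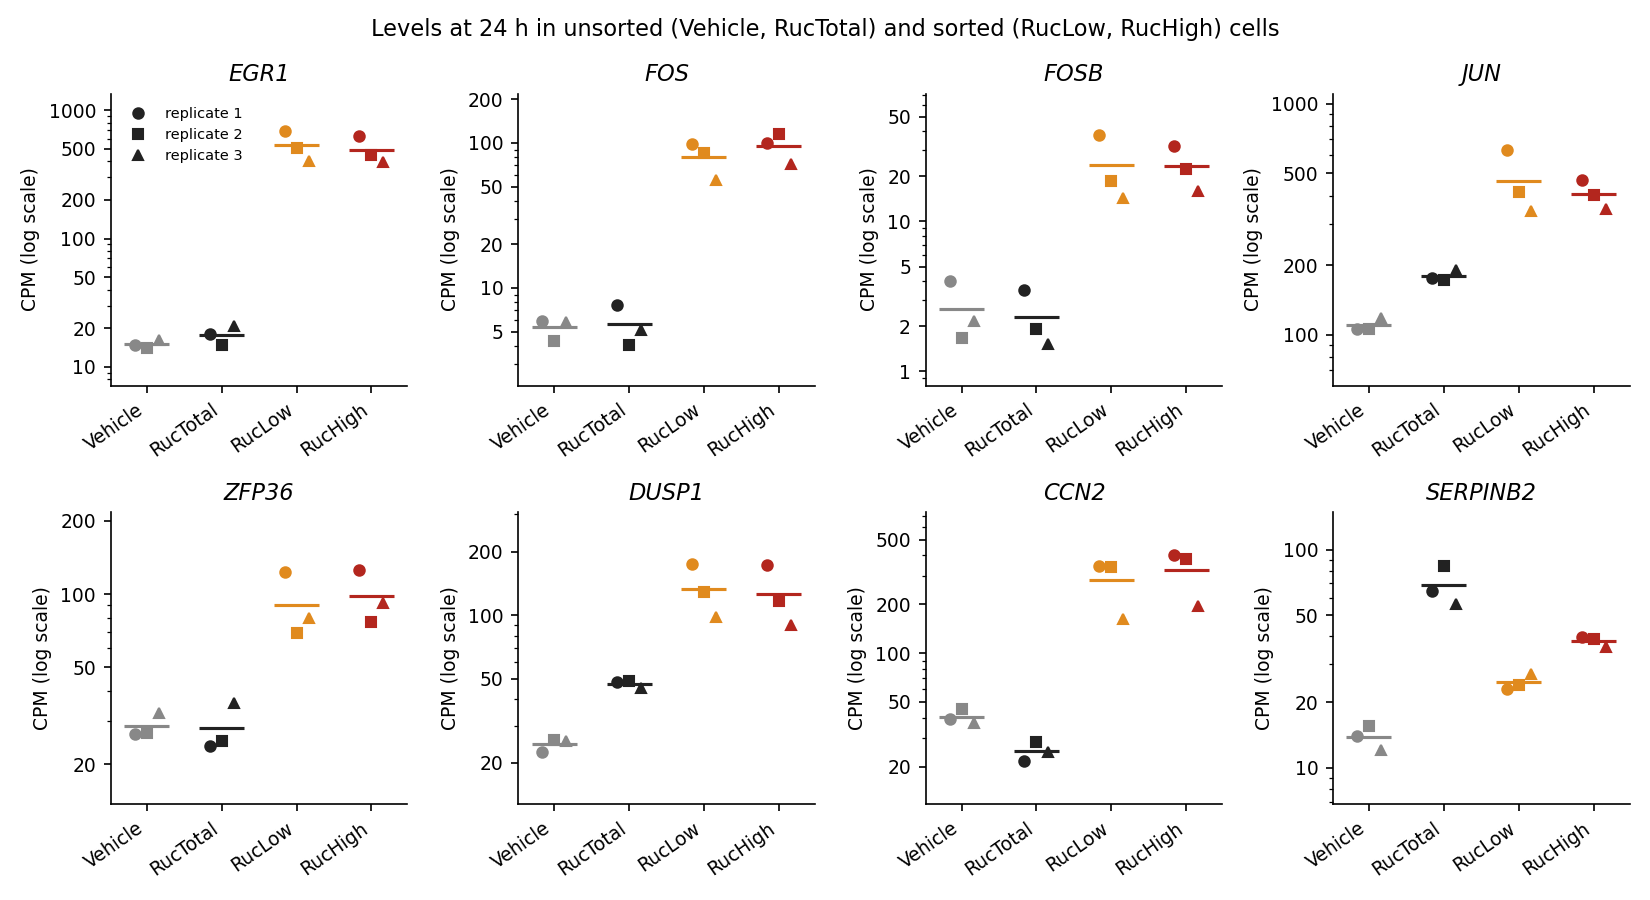
CPM at 24 h (log axis) of 8 genes in Vehicle, RucTotal, RucLow and RucHigh samples, with 1 marker shape per replicate and a line at the mean of 3. EGR1, FOS, FOSB, JUN, ZFP36, DUSP1 and CCN2 lie higher in both sorted groups than in both unsorted groups, whereas SERPINB2 is highest in RucTotal.

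Of 25 YAP/TEAD targets, 3 were higher and 0 lower (median 0.20), and 8 were higher with the block. With the block and length, 7 were higher and 4 lower. Of all genes tested 4.08% were higher without the block and 10.3% with it. With block and length 8.13% of all genes were higher and 10.3% lower. CCN2, a matricellular protein and a standard readout of YAP activity (chromosome 6, 131948176 to 131951373), was at 21.8, 28.3 and 24.5 CPM in RucTotal, 343, 342 and 162 in RucLow and 400, 381 and 194 in RucHigh. Replicate 3 was lowest of the sorted samples in both gates but still several times above every unsorted sample. Across the 9 libraries of each group the range was 19.9 to 29.7 CPM in RucTotal, 125 to 436 in RucLow and 152 to 471 in RucHigh, so the difference was present in each library. The log2 fold change was 3.61 (standard error 0.31, adjusted p = 3.97e-06 from edgeR), or 12.2-fold. CCN1, its paralogue, was at 187, 184 and 178 CPM in RucTotal, 353, 343 and 301 in RucLow and 332, 301 and 309 in RucHigh, with no overlap (0.82, adjusted p = 0.0022). NUAK2, a kinase, rose by 0.53 (adjusted p = 0.0466). Targets such as ANKRD1 (14.4, 19.4 and 18.1 CPM in RucTotal, 10.4 to 19.8 in sorted samples) and AMOTL2 (299 to 352 and 373 to 488 CPM) did not pass, with log2 fold changes of -0.12 and 0.29 (adjusted p = 0.636 and 0.105), although AMOTL2 passed with the block (adjusted p = 0.00937).

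In the NF-kB list 2 of 18 genes were higher and 1 was lower (median 0.04, 3 and 5 with the block), and in the list of chemokines and cytokines 2 of 18 were higher and 1 was lower (median 0.32, 4 and 1 with the block). Over all genes tested 4.08% were higher and 4.95% lower, and 10.3% and 13.7% with the block. NFKBIZ, an inducible nuclear cofactor of NF-kB, was at 4.31, 2.83 and 4.39 CPM in RucTotal, 29.4, 10.4 and 13 in RucLow and 25.6, 11.9 and 13.6 in RucHigh. It rose by 2.17 (adjusted p = 0.00521 from edgeR, standard error 0.42), and replicate 1 was the highest in both gates. BCL3, another nuclear cofactor, rose by 0.46, and TNIP1, a feedback inhibitor, fell by 0.23 (adjusted p = 0.048 and 0.0359). The feedback genes NFKBIA and TNFAIP3, commonly taken as markers of active NF-kB, had log2 fold changes of 0.16 and 0.06 (adjusted p = 0.786 and 0.904), and their sorted and unsorted samples overlapped.

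Of the secreted factors, the chemokine CXCL2 was at 3.02, 2.82 and 2.16 CPM in RucTotal and between 5.19 and 16.1 in sorted samples, a rise of 1.78 (adjusted p = 0.0421 from edgeR). TNF rose by 1.43 (adjusted p = 0.035), from 13.4, 10.6 and 11.4 CPM to 53.6, 18.4 and 25.1 in RucLow and 46.6, 20.8 and 26.2 in RucHigh. IL32, a proinflammatory cytokine, fell by 0.67 (adjusted p = 0.0218), from 88.3, 106 and 64.6 CPM to 46.8 to 61.8. For CXCL2, TNF and IL32 no sorted sample overlapped an unsorted one. CXCL8 and CXCL1, which attract neutrophils, and IL6 had log2 fold changes of 0.17, 0.71 and 0.77 that did not pass (adjusted p = 0.815, 0.2 and 0.288). For CXCL8 replicate 1 was higher and replicate 2 lower after sorting, at 0.66 and -0.49.

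The mitochondrial genome encodes 13 subunits of the respiratory chain, and 12 of these 13 genes were higher in sorted cells (median 3.01), and 13 with the block. Reads of mitochondrially encoded genes were 0.343% ± 0.109 of matched reads in unsorted samples (SD, n = 3) and 3.01% ± 1.05 in sorted samples (SD, n = 6), higher in 6 of 6 (exact permutation test within replicate numbers, two-sided p = 0.037, the smallest that 27 arrangements allow, adjusted p = 0.13 over 7 measures). Both gates of a replicate number are set against the same unsorted sample, so these 6 differences, here and below, are not independent. Over the libraries the share was 0.142 to 0.663% in RucTotal, 0.692 to 5.72% in RucLow and 0.357 to 5.31% in RucHigh, and 1 of 18 sorted libraries, of RucHigh replicate 2, lay inside the unsorted range. In bulk RNA, a change in the cells present and a change in the RNA of each cell cannot be told apart, here and in the other results.

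MT-ND4, a subunit of complex I, was at 245, 274 and 540 CPM in RucTotal, 5444, 2718 and 4407 in RucLow and 4753, 1893 and 3645 in RucHigh. Its log2 fold change was 3.43 (standard error 0.47, adjusted p = 0.000441 from edgeR). MT-CYB of complex III rose by 3.69 and MT-ND1 by 3.53, the complex V gene MT-ATP6 by 3.51, and MT-CO1 and MT-CO2 of complex IV by 2.77 and 2.64 (adjusted p = 0.00115, 0.000283, 0.000686, 7.24e-05 and 0.000255). MT-ND3 of complex I rose by 1.18, and MT-ND6, the only gene read from the light strand, was at 12.5, 6.99 and 1.78 CPM in RucTotal, 65.3, 38.7 and 17.1 in RucLow and 68.1, 27.8 and 9.87 in RucHigh. MT-ND6 was higher within each replicate, at 2.41, 2.23 and 2.86, but its groups overlapped and it passed only with the block (adjusted p = 0.0761 without and 3.25e-07 with it).

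Vehicle cells at 24 h, scraped in the same way, held 1445, 1054 and 752 CPM of MT-ND4, which is above RucTotal and below every sorted sample. MT-ATP6 was 1413, 796 and 540 CPM in Vehicle, 178, 175 and 356 in RucTotal and 1302 to 3865 in sorted samples. The difference between RucTotal and Vehicle was -1.96 for MT-ATP6 (adjusted p = 0.0424 from edgeR), and this contrast and the sorting contrast share the RucTotal samples. Without replicate 2 none of the mitochondrially encoded genes passed, while the median over the list, with each replicate left out in turn, was between 2.65 and 3.29.

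Nuclear genes of the respiratory chain went the other way. Of 74 tested, 0 were higher and 23 lower (median -0.53), and 1 was higher and 56 lower with the block. NDUFB7, a complex I subunit, was at 330, 312 and 153 CPM in RucTotal, 124, 154 and 130 in RucLow and 150, 161 and 110 in RucHigh. Replicates 1 and 2 of the unsorted cells stood above all sorted samples, whereas unsorted replicate 3 lay inside their range. The log2 fold change was -0.94 (adjusted p = 0.0382 from edgeR). NDUFA9 fell by 0.57, SDHA of complex II by 0.47, UQCRC1 and CYC1 of complex III by 0.41 and 0.52 and the ATP synthase subunit ATP5F1A by 0.39 (adjusted p = 0.0143, 0.0123, 0.0117, 0.0138 and 0.0139). ATP5F1B and UQCRB did not pass, at -0.27 and -0.35 (adjusted p = 0.0583 and 0.26), although ATP5F1B passed with the block (adjusted p = 0.00418). All of NDUFA9, SDHA, UQCRC1, CYC1 and ATP5F1A were lower in every sorted sample than in every unsorted one. Cytosolic ribosomal protein genes had 0 higher and 4 lower of 77 (median -0.39, 38 lower with the block). The 4 are near the 4.95% of all genes that were lower, and the 38 are above the 13.7% with the block. RPS2 was at 5297, 5522 and 3506 CPM in RucTotal and 2838 to 3576 in sorted samples (-0.58, adjusted p = 0.0268 from edgeR), and RPS26 was at -0.53 (adjusted p = 0.0229). RPLP0, RPL41 and RPS27 were at -0.36, -0.64 and 0.18 and did not pass (adjusted p = 0.0725, 0.0977 and 0.727), and with the block RPLP0 and RPL41 passed (adjusted p = 0.0148 and 0.0208).

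**Figure D2:**
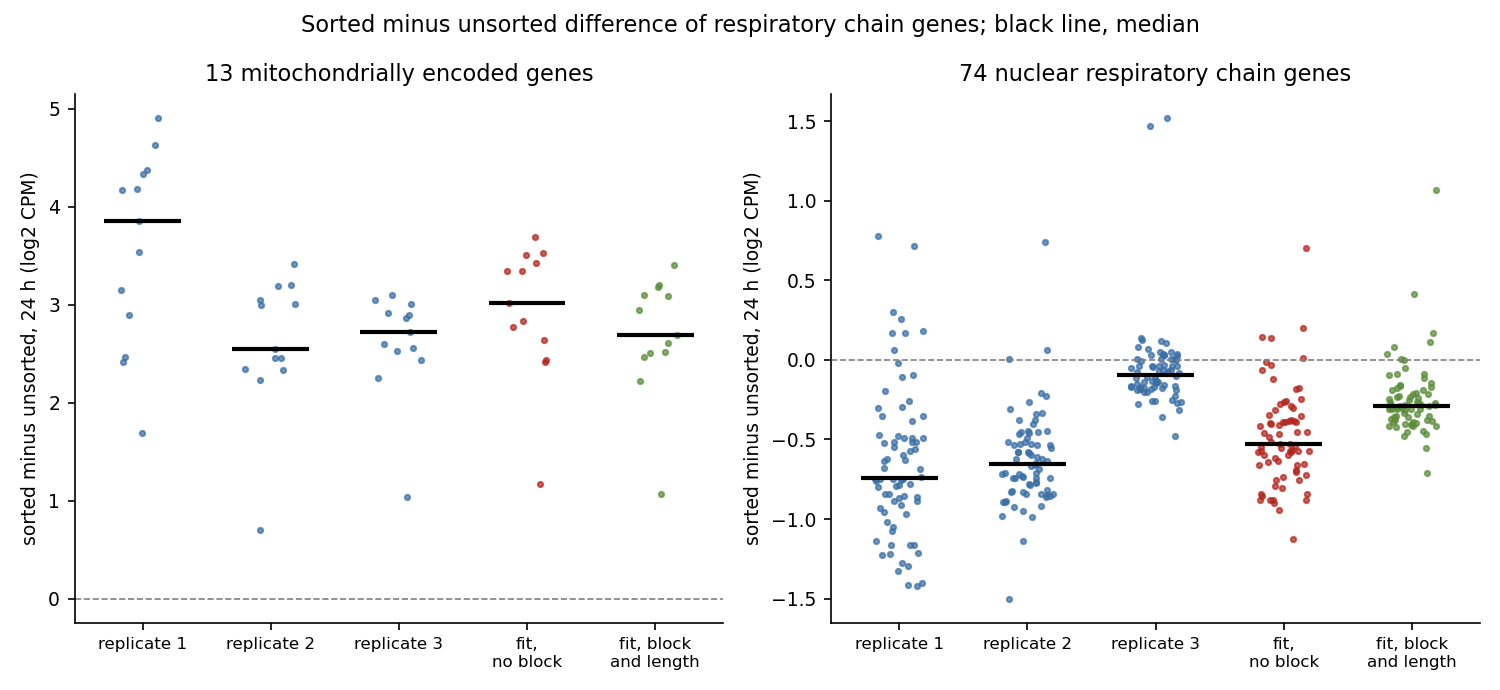
Sorted minus unsorted difference (log2 CPM, 24 h) of 13 mitochondrially encoded and 74 nuclear respiratory chain genes, 1 point per gene, within each replicate and in 2 fits, with the median as a black line. Mitochondrially encoded genes lie above 0 in each replicate (medians 3.85, 2.55 and 2.73), and nuclear genes mostly below 0 in replicates 1 and 2 (medians -0.74 and -0.65) and near 0 in replicate 3 (median -0.09).

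The lower calls were unequal between replicates, and so was transcript length. Unsorted libraries of replicates 1 and 2 had mean transcript lengths of 2609 to 2966 bases, those of replicate 3 had 3185 to 3310, and sorted libraries had 2740 to 3256. Mean length per sample was 2912 ± 289 bases in unsorted (SD, n = 3) and 3047 ± 59.1 in sorted samples (SD, n = 6), a difference that did not pass an exact permutation test within replicates (p = 0.259, adjusted p = 0.454). Across 10 bins of effective gene length the median log2 fold change went from -0.16 in the second shortest bin to 0.07 in long genes. In replicate 1 the bins ran from -0.22 to 0.18 and in replicate 2 from -0.26 to 0.16, while in replicate 3 they lay between -0.08 and 0.01.

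With the block and the mean length of the sample in the model, the medians were -0.29 for nuclear respiratory genes (46 lower and 1 higher of 74) and -0.18 for ribosomal proteins (26 lower of 77), while that of the mitochondrially encoded genes was 2.69 (13 higher). The replicate medians for ribosomal proteins were -0.53, -0.50 and -0.02. Without the libraries of under 2800 bases, the medians were -0.31 for nuclear respiratory genes and -0.20 for ribosomal proteins, and 826 genes were higher and 559 lower over all. With an offset for effective length 527 were higher and 413 lower.

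**Figure D3:**
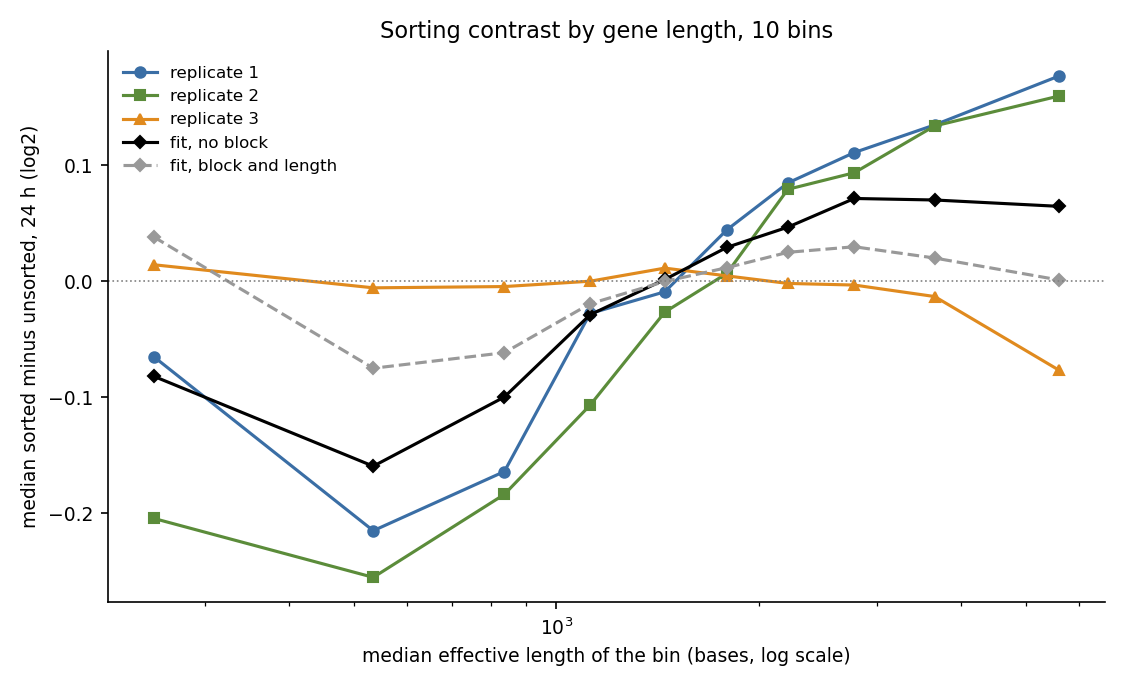
Median sorted minus unsorted difference at 24 h (log2) in 10 bins of genes by effective length (bases, log axis), for each replicate and for fits without block and with block and length. Replicates 1 and 2 climb from the second bin to the longest genes, from -0.22 to 0.18 and from -0.26 to 0.16, and replicate 3 does not.

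Of 15 tested genes for proteases and the plasminogen activator system, 0 were higher and 5 lower (median -0.05). MMP1, which cleaves fibrillar collagen, was at 7.22, 8.53 and 8.38 CPM in RucTotal, 2.09, 1.41 and 2.07 in RucLow and 5.83, 4.29 and 4.75 in RucHigh, and at 0.858 to 1.08 CPM in Vehicle. The 3 treated groups did not overlap, and RucLow was the nearest to Vehicle. The log2 fold change of sorted against unsorted cells was -1.41 (standard error 0.20, adjusted p = 0.000492 from edgeR), with -0.70 for RucHigh (adjusted p = 0.0882) and -2.12 for RucLow (adjusted p = 0.0002). SERPINB2, an inhibitor of plasminogen activators, was at 64.8, 84.3 and 56.4 CPM in RucTotal, 23, 24.0 and 26.8 in RucLow and 39.6, 38.9 and 35.9 in RucHigh, again without overlap. It fell by 1.16 (standard error 0.15, adjusted p = 0.000283), by 1.48 in RucLow and 0.84 in RucHigh. MMP10, MMP9 and PLAUR, the urokinase receptor, fell by 1.13, 0.85 and 0.53 (adjusted p = 0.035, 0.00366 and 0.0401). PLAU, urokinase itself, was at 471, 458 and 432 CPM in RucTotal and 403 to 543 in sorted samples and did not pass (0.02, adjusted p = 0.964).

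Genes of DNA replication and S phase were lower in 15 of 47 and higher in 0 (median -0.30), with 28 lower and 1 higher with the block. FEN1, the flap endonuclease of lagging strand synthesis, was at 427, 365 and 218 CPM in RucTotal and 171 to 214 in sorted samples, and fell by 0.81 (adjusted p = 0.0193 from edgeR). TK1, thymidine kinase, was at 988, 912 and 646 CPM in RucTotal, 450, 588 and 619 in RucLow and 478, 460 and 482 in RucHigh. Every sorted sample of TK1 was below every unsorted one, and the log2 fold change was -0.73 (standard error 0.15, adjusted p = 0.00786). The clamp loader subunit RFC2, the helicase subunit MCM2 and the ribonucleotide reductase subunit RRM1 fell by 0.48, 0.30 and 0.44 (adjusted p = 0.00391, 0.0204 and 0.0137). RRM2, PCNA and CCNE2 did not pass, at -0.55, -0.37 and 0.11 (adjusted p = 0.0979, 0.0579 and 0.715), and with the block RRM2 and PCNA passed (adjusted p = 0.00747 and 0.0128). The replicate medians of this list were -0.45, -0.39 and -0.03, and with block and length 19 of 47 were lower. In 13 of the 47, every sorted sample was below every unsorted one, which held for 4.94% of all genes tested.

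Genes of G2 and mitosis were lower in 3 of 56 (median -0.16, 10 lower with the block). The 3 are near the share of all genes tested, of which 4.95% were lower, and 13.7% with the block. The motor protein gene KIF4A had 85.3, 84.2 and 88.7 CPM in RucTotal, 48.9, 68.2 and 69.1 in RucLow and 49.6, 53 and 57 in RucHigh, and fell by 0.58 (adjusted p = 0.00122 from edgeR, standard error 0.09). Survivin, encoded by BIRC5, fell by 0.62 and UBE2S, an E2 of the anaphase-promoting complex, by 0.69 (adjusted p = 0.00899 and 0.0302). For KIF4A the replicates were close to each other, at -0.79, -0.49 and -0.50, whereas UBE2S was at -0.96, -0.88 and -0.16. CCNB1 and PLK1 had log2 fold changes of -0.39 and -0.20 and did not pass (adjusted p = 0.0782 and 0.571), and CCNB1 passed with the block (adjusted p = 0.0136).

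**Figure D4:**
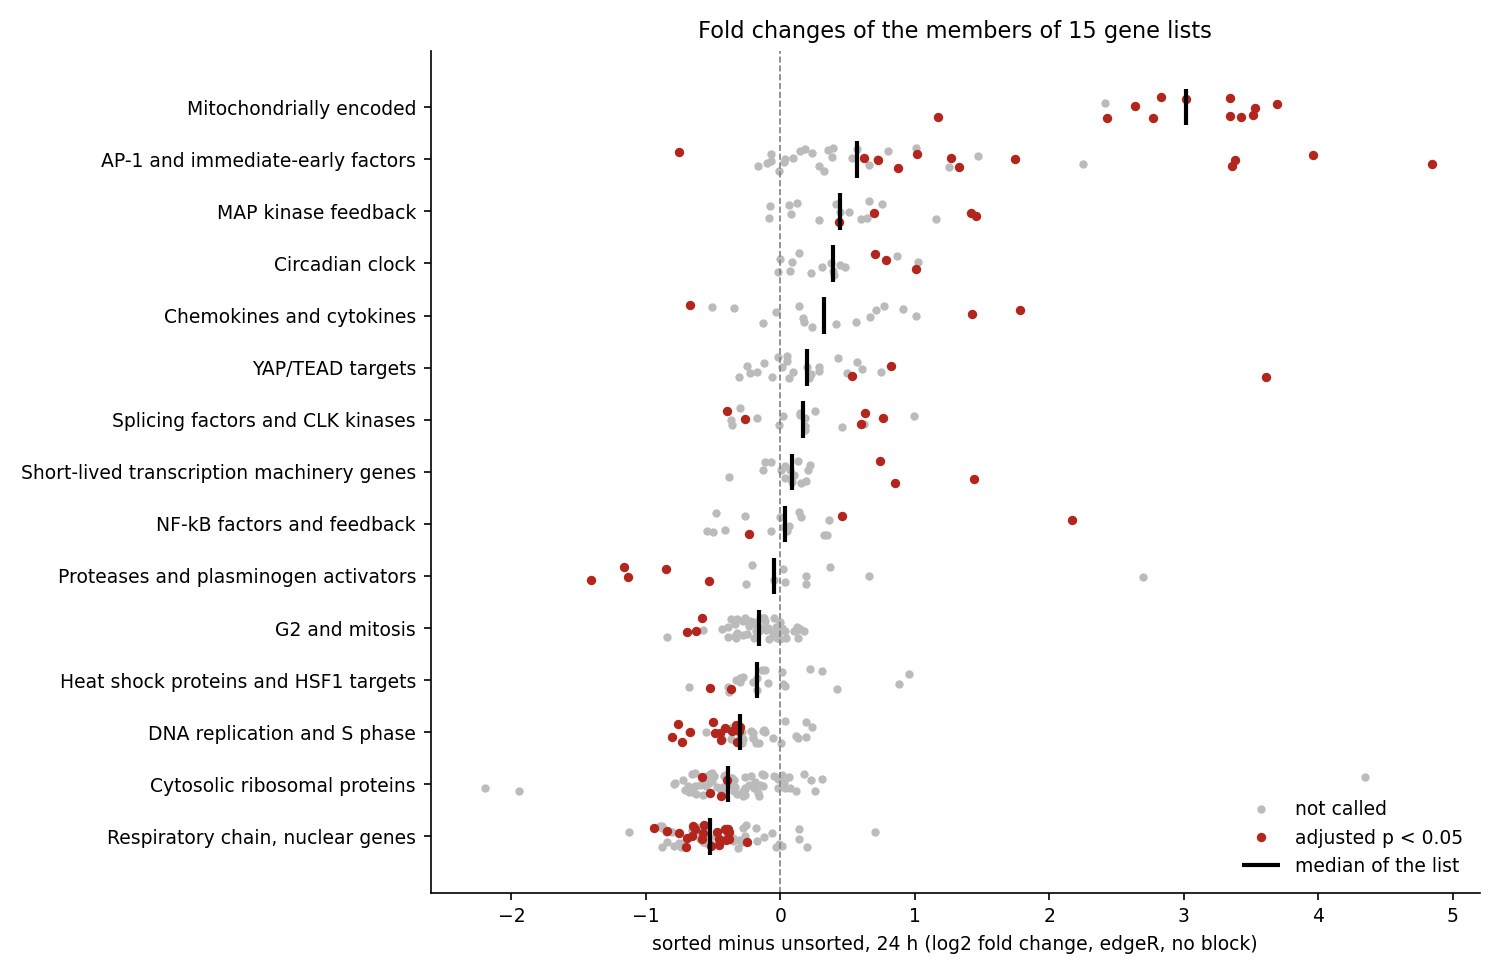
Log2 fold change (sorted minus unsorted, 24 h) of the members of 15 gene lists, 1 point per gene, red where the edgeR adjusted p was under 0.05, with a black line at the median of the list; 2 members lie outside the axis. Mitochondrially encoded genes have the highest median (3.01), followed by immediate-early genes (0.57), and nuclear respiratory chain genes the lowest (-0.53).

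Among genes of the heat shock response, 0 of 23 were higher and 2 lower (median -0.18), with 2 higher and 9 lower with the block. HSP90AA1, the inducible HSP90, was at 2893, 2750 and 1824 CPM in RucTotal and 1619 to 1857 in sorted samples, and fell by 0.52 (adjusted p = 0.0434 from edgeR). AHSA1, the cochaperone whose promoter is printed above, fell by 0.37 (adjusted p = 0.0165), from 175, 164 and 127 CPM to 113 to 130. In both genes the unsorted replicate 3 lay inside the range of the sorted samples. HSPA1A, the main inducible HSP70 gene, was at 221, 257 and 113 CPM in RucTotal, 168, 125 and 100 in RucLow and 157, 117 and 70.8 in RucHigh (-0.68, adjusted p = 0.238, and 0.0206 with the block), and its near-identical copy HSPA1B had 0.02 (adjusted p = 0.984), although reads cannot be divided between them with certainty. HSPH1 was at -0.14 (adjusted p = 0.422). DNAJB1 was higher in each of 6 paired differences, at 0.42, without passing (adjusted p = 0.291, and 0.0489 with the block). Of the cold-induced RNA-binding proteins, RBM3 was 0.28 lower after sorting (adjusted p = 0.0182), at 491, 532 and 476 CPM against 364 to 444, and CIRBP did not pass (-0.38, adjusted p = 0.152).

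In lists tied to adhesion and the cytoskeleton, up to 3 genes each were called lower and 0 higher. Over all genes tested 4.08% were higher and 4.95% lower. Among 26 integrin and focal adhesion genes 0 were called in either direction (2 higher and 4 lower with the block), and ITGB1, the shared beta subunit, had 383, 384 and 381 CPM in RucTotal and 231 to 364 in sorted samples (-0.35, adjusted p = 0.0541, and 0.00974 with the block). ITGA2 was at -0.14 (adjusted p = 0.723). Among 27 actin and serum response factor genes 3 were lower and 0 higher, namely the actin regulators PFN1, TAGLN2 and CFL1 at -0.53, -0.44 and -0.36 (adjusted p = 0.0163, 0.00269 and 0.0246 from edgeR), and ACTB did not pass (-0.22, adjusted p = 0.653). Of 31 matrix genes 2 were lower, LAMB3 at -0.57 and TIMP1 at -0.31. Of 32 genes of cell-cell contacts 3 were lower, CTNNB1, F11R and PKP3, by 0.23, 0.32 and 0.43, and CDH1 did not pass (-0.06, adjusted p = 0.878). KRT7, a keratin of this lineage, fell by 0.44 (adjusted p = 0.0421), while PAX8, WT1 and EPCAM did not pass (0.23, -0.08 and -0.35), of which EPCAM passed with the block (adjusted p = 0.0123).

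Over all genes tested 4.08% were higher and 4.95% lower. Without the block, the counts below for the integrated stress response, chaperone and p53 lists were near these shares. In the integrated stress response 1 of 23 was higher and 1 lower. ATF4, its central transcription factor, rose from 71.7, 86.6 and 79.7 CPM to 134, 114 and 108 in RucLow and 114, 103 and 103 in RucHigh (0.50, standard error 0.11, adjusted p = 0.00967 from edgeR), without overlap. Its targets DDIT3, CHAC1 and TRIB3 had log2 fold changes of 0.23, -0.18 and -0.43 that did not pass, and PHGDH fell by 0.42. In the endoplasmic reticulum, 1 of 19 chaperone genes was lower, PDIA6 at -0.42 (7 lower and 2 higher with the block). Of 26 p53 targets 1 was higher, the kinase gene PLK2 at 0.67 (adjusted p = 0.0308), and 1 was lower, BAX at -0.37 (adjusted p = 0.0269), with CDKN1A at -0.25 and MDM2 at -0.01. Of 25 apoptosis regulators 2 were higher, MCL1 and BCL2L11, and 5 were lower, the apoptosis effector BAX, its activator BID, the death receptor adaptor FADD, DIABLO, which antagonises inhibitors of apoptosis, and BIRC5, with log2 fold changes between -0.62 and -0.32. Of 35 glycolysis and hypoxia genes 3 were lower, TPI1, PKM and ENO1, by 0.60, 0.40 and 0.34, and 0 were higher. Among the DNA repair genes, BRCA1 was at -0.23 and did not pass (adjusted p = 0.208 from edgeR, and 0.0413 with the block). Among 32 interferon and antigen presentation genes, the peptide transporter gene TAP2 rose by 1.23 (adjusted p = 0.0352 from edgeR).

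Some regulators of transcription and splicing were also called higher. CCNL1, a cyclin partner of splicing-related kinases, was at 85.8, 69.3 and 92.3 CPM in RucTotal, 387, 163 and 185 in RucLow and 259, 170 and 183 in RucHigh, with replicate 1 the highest in each gate. It rose by 1.44 (adjusted p = 0.00651 from edgeR, standard error 0.28), its relative CCNL2 by 0.74 and the elongation cyclin CCNT2 by 0.85 (adjusted p = 0.0365 and 0.017), and these were the 3 higher genes of 20 in the short-lived transcription machinery (median 0.09). Of 20 splicing factors and CLK kinases 3 were higher, CLK1, SRSF11 and HNRNPH1 at 0.63, 0.76 and 0.60 (adjusted p = 0.02, 0.0144 and 0.0075), and 2 lower (median 0.17). With the block 6 of these 20 were higher and 5 lower, so members of this list went both ways. The shares of all genes were 4.08% higher and 4.95% lower, and 10.3% and 13.7% with the block.

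NEAT1, the long noncoding RNA that scaffolds paraspeckles, was at 562, 266 and 190 CPM in RucTotal, 966, 772 and 628 in RucLow and 1408, 1130 and 710 in RucHigh. Sorted and unsorted samples did not overlap, and the log2 fold change was 1.45 (standard error 0.45, adjusted p = 0.0482 from edgeR, 5.62e-05 with the block). MALAT1, a nuclear RNA of a neighbouring gene, was higher in each of 6 paired differences, at 1.01, and passed only with the block (adjusted p = 0.277 and 0.000908). Reads of lncRNA genes were 0.618% ± 0.0811 in unsorted (SD, n = 3) and 0.869% ± 0.142 in sorted samples (SD, n = 6), higher in 6 of 6 (exact permutation test within replicates, p = 0.037, adjusted p = 0.13). In the circadian clock list 3 of 17 were higher and 0 lower (median 0.39, 5 with the block and 2 with block and length). NR1D1, a nuclear receptor that represses clock genes, had 6.88, 7.59 and 8.80 CPM in RucTotal, 35.8, 14.3 and 13.6 in RucLow and 11.1, 11 and 12.5 in RucHigh, and rose by 1.01 (adjusted p = 0.0359). CIART and PER3 rose by 0.70 and 0.79, and PER1 did not pass (1.02, adjusted p = 0.0889, and 0.0338 with the block).

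Of the 10 largest decreases allowed by the rule for named genes, ELOB, an elongin subunit, fell by 1.09 from 226, 272 and 126 CPM to 77.8 to 118, without overlap (adjusted p = 0.0104 from edgeR). The centromere protein gene CENPW fell by 1.09, DNLZ, a mitochondrial chaperone partner, by 1.39, BCAP31, a protein of the endoplasmic reticulum, by 1.26 and the calmodulin-like gene CALML3 by 0.97. In CENPW, DNLZ, BCAP31 and CALML3 the unsorted replicate 3 lay inside the range of the sorted samples, at 41.6, 4.34, 130 and 18.9 CPM. RN7SL2, an RNA of the signal recognition particle with near-identical copies, fell by 1.44.

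Some large values depend on how reads were assigned to transcripts. TPBG is listed at 0 in all 9 RucTotal libraries and at up to 4526 reads in sorted libraries, but it is also at 0 in 5 sorted libraries whose companion libraries of the same replicate hold 2217 to 4526 reads, so no fold is given. GMPR2, among the largest decreases, is at 0 in 4 sorted libraries in the same way. FKBP1A, another of these, was at 0 in none but ranged from 612 to 5577 reads among the libraries of RucHigh replicate 1. HSPA5, the endoplasmic reticulum chaperone, had 217, 311 and 185 CPM in RucTotal, 13, 119 and 120 in RucLow and 1.06, 96.5 and 86.8 in RucHigh without passing. MTND2P28, which rose, is a nuclear copy of mitochondrial sequence and shares reads with it. Of 10812 genes at 5 CPM or more, 1312 were called. Among the 10812, 225 differed by over 3 on the log2 scale between libraries of 1 replicate, and 16 of these 225 were called. The 225 include MT-CYB, MT-ATP6, MT-ND4 and MT-ND1, at up to 4.36, 4.12, 3.44 and 3.28. MT-ND2, MT-ND5 and MT-CO3 are also among them, and all of these mitochondrially encoded genes were called. In RucHigh replicate 2, MT-CYB ran from 102 to 2107 CPM between libraries, while RucTotal libraries reached 491 CPM in replicate 3. Reads of 9.65 to 11.6% per library fell on transcripts that GENCODE 29 does not list and are in no gene's count.

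Each gate was also set against the same 3 RucTotal samples, so both comparisons share them. RucHigh had 572 higher (2.88%) and 504 lower genes (2.54%) and RucLow 337 higher (1.7%) and 129 lower (0.65%). EGR1 had 4.79 in RucHigh and 4.90 in RucLow, FOS 4.09 and 3.83, CCN2 3.71 and 3.51 and MT-ND4 3.28 and 3.57. Of the 13 mitochondrially encoded genes, 12 were higher in each gate, and of 37 immediate-early genes 10 were higher in RucHigh and 8 in RucLow. Of 47 S phase genes 10 were lower in RucHigh and 0 in RucLow, with medians of -0.32 and -0.25. Of 74 nuclear respiratory chain genes 10 were lower in RucHigh and 0 in RucLow, with medians of -0.56 and -0.49. Counts of calls in 1 gate and not in the other were not tested as differences.

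The same contrast was measured at 2 h in 27 other libraries, with 225 higher (1.13%) and 219 lower genes (1.1%). No sample is shared between the times. Called in both and in the same direction were 255 genes, 14.2% of the calls at 24 h and 57.4% of the 444 at 2 h, and 0 were called in opposite directions. Of the 1792 genes called at 24 h, 1733 had the same sign at 2 h. EGR1 rose by 5.18 at 2 h (adjusted p = 1.34e-09 from edgeR), with 18, 14.3 and 21.3 CPM in RucTotal, 789, 626 and 544 in RucLow and 717, 675 and 532 in RucHigh. FOS, FOSB and CCN2 rose by 4.29, 3.75 and 2.94 at 2 h.

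Mitochondrially encoded genes had smaller fitted changes at 2 h than at 24 h, and the difference between times did not pass the test. At 2 h 3 of the 13 genes were higher (median 1.42), and MT-ND4 was at 1148, 1166 and 915 CPM in RucTotal, which is above the 245 to 540 CPM of RucTotal at 24 h, and at 1985 to 4714 CPM in sorted samples. The difference of the contrasts, 24 h minus 2 h, was 1.85 for MT-ND4 and 2.20 for MT-CYB (adjusted p = 0.809 for both). Over all genes the difference was called for 0 by edgeR, with 1086 at an unadjusted p under 0.05, for 13 by DESeq2, and for 0 with the block and 4 with block and length. MMP1 had -0.76 and SERPINB2 -0.58 at 2 h and neither passed (adjusted p = 0.0601 and 0.0512), and their differences between times, -0.65 and -0.58, did not pass either (adjusted p = 0.809 for both). Of the nuclear respiratory genes 15 of 74 were lower at 2 h, with a median of -0.42.

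**Figure D5:**
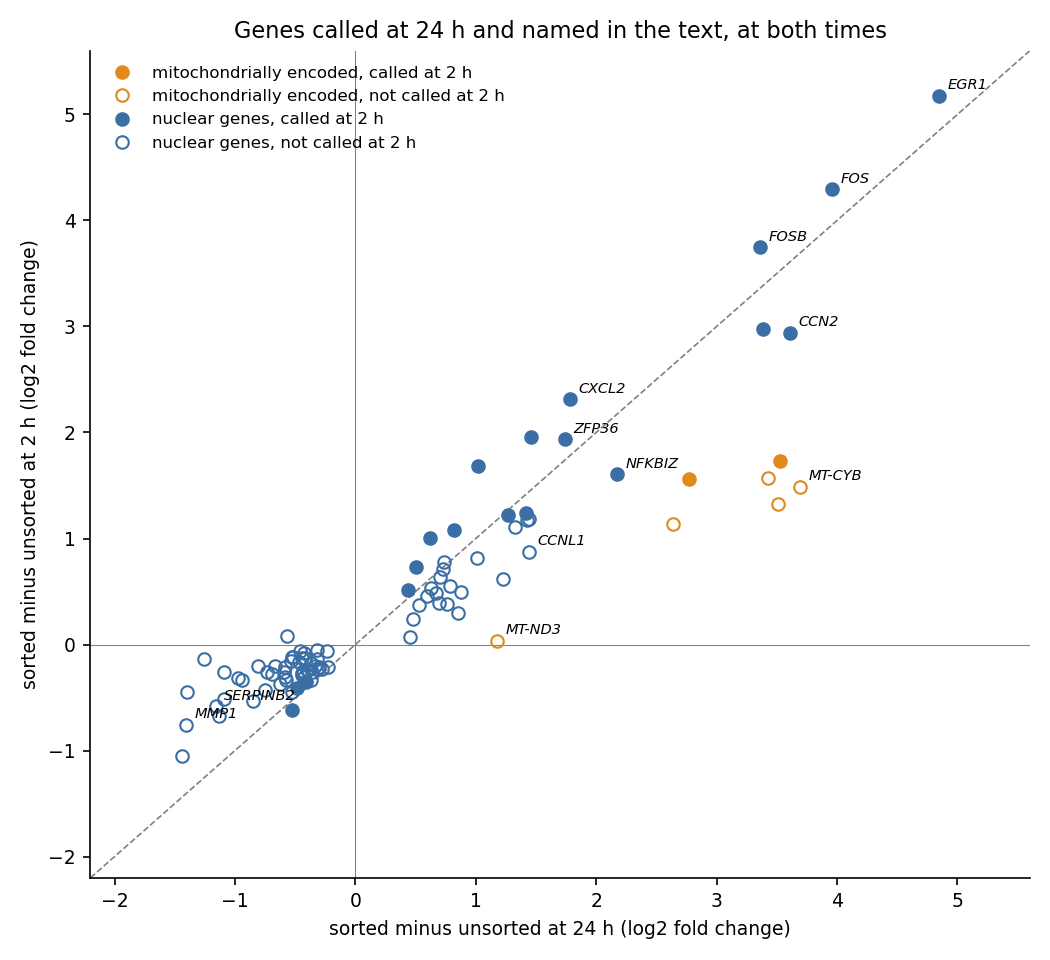
Log2 fold change of sorted against unsorted treated cells at 24 h (x axis) and 2 h (y axis) for the 94 genes called at 24 h and named in the text, filled where also called at 2 h, with the line of equal values dashed. Of these, 93 have the same sign at 2 h and 21 are called there, EGR1, FOS and CCN2 lie near the dashed line, and mitochondrially encoded genes lie under it.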

How the data were processed

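RNA was measured in PEO1 cells, 3 libraries per gate, time and replicate number. The authors deposited, per library, estimated counts and TPM per transcript from Salmon (version not given in the sources used here), and the submitters' processing notes name cutadapt 4.7, DESeq2 1.44.0 and GRCh38. Transcripts were matched to GENCODE 29 genes. Those without a match, which took 9.65 to 11.6% of reads per library in the 3 groups compared, entered neither library sizes nor tests. Estimated counts were summed over 3 libraries and rounded, genes were filtered with filterByExpr, and edgeR 4.0.16 in R 4.3.3 was run with TMM factors (quasi-likelihood, all 24 summed samples, 16 residual degrees of freedom, Benjamini-Hochberg threshold 0.05). The test was also run on simulated counts drawn independently per sample, which covers neither the pairing nor the length differences of these data. The libraries of the fit held 17391033 to 38899905 estimated reads each, those of the 3 groups 27747511 to 38899905, before transcripts without a match were left out. The 3 libraries of a replicate differed by more than sampling noise (lowest chi-square per degree of freedom 7.83) and were treated as technical repeats.

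Samples and the 39 gene lists were chosen with earlier results of these data known. Named genes are up to 10 increases and 10 decreases of at least 5 CPM with the same sign in all 6 paired differences, up to 2 called members per direction of each list, and key genes of the lists. Other called list members, and the markers and flagged genes, were named after their values were seen. Replicate numbers were taken to pair the samples, which neither the labels nor the paper states for these libraries. The study's reporting summary gives separate days for replicates of imaging and sorting experiments in general. Deviations from the group means correlated with a median r of 0.26 (lowest 0.17) between same-numbered treated samples at 24 h and -0.17 between different numbers. The main fit used no pairing and treated all summed samples as independent, and the block is the fit with pairing. Alternatives were the replicate block, mean transcript length, DESeq2 1.42.0, its size factors, other filters, a length offset, limma 3.58.1 on log2(TPM + 1), only the 9 samples compared, no libraries under 2800 bases, and each replicate left out. The block with a replicate omitted was an alternative added after the data were seen. Some results of the DNA repair and antigen presentation lists are not reported here.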

Additional observations from a re-analysis of the deposited data

Results flagged for a closer look

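MMP1 was picked out because the 2 sorted gates differed in their departure from the same unsorted cells. RucHigh was 1.42 above RucLow on the log2 scale at 24 h (adjusted p = 0.031 from edgeR), with RucHigh at 5.83, 4.29 and 4.75 CPM and RucLow at 2.09, 1.41 and 2.07 CPM, higher in RucHigh in 3 of 3 replicates. In the 3 groups of 9 libraries no library stood apart from the others by Dixon's criterion in any of 7 measures of library composition. The criterion looks at 1 library at a time, so it cannot flag a replicate whose 3 libraries lie together. Histone reads were 0.0063 to 0.0076% in the libraries of RucLow replicate 1. They were 0.0018 to 0.0026% in RucLow replicate 2 and 0.0018 to 0.0023% in RucLow replicate 3.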

How the results depend on the processing

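Counts of calls moved with the processing more than directions did. For higher and lower genes of the sorting contrast at 24 h (810 and 982), the replicate block gave 2046 and 2709, the block per time point 1990 and 2737, and block and mean transcript length 1612 and 2035. Without a filter on low counts 474 and 569 were called, in a fit of the 9 samples compared 190 and 18, with an offset for effective length 527 and 413, and without libraries under 2800 bases 826 and 559. DESeq2 gave 1215 and 1711 and limma on log2(TPM + 1) 830 and 206. With a replicate left out the counts were 5 to 1111 higher and 0 to 1714 lower, and with the block as well 903, 273 and 2063 higher and 324, 25 and 2427 lower without replicates 1, 2 and 3, lowest without replicate 2 in each case. Leaving out 1 replicate also leaves fewer samples for the spread.

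For RucHigh (1076 called), RucLow (337 higher and 129 lower) and the 2 h contrast (444), the block gave 3866, 2968 and 2852 calls, block and length 2853, 3140 and 4588 and DESeq2 2202, 1438 and 1311, and leaving out a replicate gave 1 to 1182, 1 to 1535 and 2 to 356. For the difference between times, 4 genes were called with block and length, 13 by DESeq2 and 0 with any replicate left out and no block. With the block 1 gene was called without replicate 3, and 1 was called with the block per time point. Medians of the gene lists named moved by less than the spread between replicates except that of chemokines and cytokines, 0.32 and 0.61 without replicate 2 (0.25 to 0.61 with each left out). Some small medians still moved by over 1.5 times. Without replicate 1 the median was 0.37 for immediate-early genes (0.57), 0.22 for MAP kinase feedback (0.44), 0.07 for YAP/TEAD targets (0.20, and 0.38 without replicate 3), 0.13 for the clock (0.39), -0.19 for S phase (-0.30), -0.10 for proteases (-0.05, and -0.0057 without replicate 3) and -0.04 for NF-kB (0.04), and without replicate 2 it was -0.06 for heat shock genes (-0.18). With block and length it was 0.07 for YAP/TEAD targets, 0.15 for the clock, -0.14 for proteases and -0.02 for NF-kB.

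Of the 94 genes named in the text and called, the block kept 94, block and length 91 and DESeq2 94, while 34, 3 and 79 passed without replicate 1, 2 and 3, 24 in the fit of 9 samples, 52 with the offset and 50 on log2(TPM + 1). Called genes that changed direction were UBE2S, at 0.12 with the offset and 0.28 on log2(TPM + 1), and PKP3, at 0.11 on log2(TPM + 1). The cause was not tested for any of these changes.

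Genes that were not called turned direction as follows. With block and length, FOSL1 was at -0.023, TNFAIP3 at -0.027 and HSPA1B at -0.15. HSPA1B was also at -0.017 with the block per time point and -0.18 without libraries under 2800 bases. CCNE2 was at -0.10 with the offset, and HSPH1, CHAC1 and WT1 were at 0.030, 0.097 and 0.18 on log2(TPM + 1). MDM2 was at 0.016 with at least 1 CPM in 3 samples and at 0.0025 without libraries under 2800 bases. With each replicate left out in turn, ATF3 was between -0.0002 and 0.61, FOSL1 between -0.046 and 0.41, TNFAIP3 between -0.057 and 0.20, CXCL8 between -0.14 and 0.55, RPS27 between -0.0013 and 0.34, PLAU between -0.0057 and 0.10, HSPA1B between -0.15 and 0.12, ITGA2 between -0.35 and 0.13, MDM2 between -0.059 and 0.12 and CDH1 between -0.12 and 0.062. With the block and without replicate 1, ATF3 was at -0.0024, FOSL1 at -0.092, TNFAIP3 at -0.077, CXCL8 at -0.14, RPS27 at -0.0046, PLAU at -0.0068 and HSPA1B at -0.17. With the block and without replicate 3, PLAU was at -0.0053, ITGA2 at 0.14, MDM2 at 0.12 and CDH1 at 0.055.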

Other observations

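Beyond the gene lists, calls were counted over gene classes of the annotation, which were looked at after the values were known and are given as counts only. Over all genes 4.08% were higher and 4.95% lower in sorted cells. Of 14830 protein-coding genes 507 were higher (3.42%) and 941 lower (6.35%). Among 1358 antisense genes 62 were higher (4.57%) and 9 lower (0.663%), and among 1216 lincRNA genes 62 (5.1%) and 10 (0.822%), so that higher calls were near the share of all genes. Of 862 processed pseudogenes 19 were higher (2.2%) and 13 lower (1.51%), with a median log2 fold change of -0.12. Among 289 processed transcripts 29 were higher and 0 lower, and among 243 sense-intronic genes 28 (11.5%) and 2. Of 364 transcribed unprocessed pseudogenes 45 were higher (12.4%) and 3 lower, although such genes can share reads with their parent gene. Of 54 small nucleolar RNA genes, most of them very short, 10 were higher (18.5%) and 0 lower.

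Families were also chosen by name after the values were seen. Of 473 zinc finger genes named ZNF, 49 were higher and 7 lower (median log2 fold change 0.21), and of 24 host genes of small nucleolar RNAs named SNHG 6 were higher and 0 lower (median 0.40). Mitochondrial ribosomal protein genes had 1 higher and 30 lower of 77 (median -0.42, with replicate medians of -0.58, -0.58 and -0.08), and proteasome subunit genes 0 higher and 10 lower of 36 (median -0.32). Solute carrier genes, at 10 higher and 13 lower of 273, were near the share of all genes.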
